A study of Mus musculus with 15 samples.

Results

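Tumours of acute promyelocytic leukaemia (APL), taken as spleens from mice of the strain Bl/6 Taconic, were compared by how strongly they expressed genes of dividing cells. In this leukaemia neutrophil precursors are arrested as promyelocytes. Of 15 tumours in all, 10 entered the comparison: the 5 with the highest and the 5 with the lowest cycling score among 13 ranked tumours. The tumours were chosen by measured values: the score was the mean log2 intensity of proliferation genes, each centred on its mean over the 13 tumours. The rule named 7 such genes, of which 5 were measured: Mki67, Top2a, Plk1, Mcm5 and Mcm6. Ccnb1 and Rrm2 were not analysed here, as no probeset carried either symbol alone. Because the values of these genes chose the tumours, they are described below without a test.

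Total RNA of each spleen was read on whole-transcript exon arrays, 1 array a tumour, and all 15 arrays carry the same strain, tissue and disease in the labels. The high-score tumours were tumor_9492, tumor_29, tumor_26, tumor_36 and tumor_9529. The low-score tumours were tumor_9523, tumor_9508, tumor_9520, tumor_33 and tumor_9504. Between them stood tumor_9500, tumor_9495 and tumor_31, while tumor_9509 and tumor_9514 were left out of the ranking. The labels give no transgene, treatment, age or stage, and healthy spleen was not analysed here. Whether each tumour is from an animal of its own is not stated. The p-values therefore reflect only how far these arrays spread, some of which may be technical.

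A dividing cell licenses and copies its DNA in S phase, with the Mcm helicase at the fork, and separates the copies in mitosis through the spindle, kinetochores and condensin. E2F factors drive many S phase genes once the retinoblastoma protein Rb1 is inactivated by cyclin-dependent kinases. The mitotic genes peak later, through a complex that binds a promoter element called the cell cycle homology region. In neutrophil development, secondary granules are filled after the promyelocyte stage, and division stops as the cells mature further.

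The median deposited intensity per array was 122 to 125 in the high-score tumours and 120 to 124 in the low-score tumours. It was 124 to 129 in the tumours in between and 108 in both tumours left out. The median correlation of an array with the others was 0.943 and 0.945 for those left out and 0.960 to 0.970 for the 13 ranked tumours. Each gene is given as a log2 intensity, taken as the median of its probesets, and differences are the mean of the high-score minus the mean of the low-score tumours. A gene was tested if its mean over the 13 tumours passed 6.42, the 40th percentile of all named genes, and values under that limit may be background. The number of arrays limits the precision.

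The cycling score separated the groups by a narrow step on its low side. It was 0.37 in tumor_9492, 0.34 in tumor_29, 0.20 in tumor_26, 0.19 in tumor_36 and 0.175 in tumor_9529. It was -0.024 in tumor_9523, -0.081 in tumor_9508, -0.26 in tumor_9520, -0.32 in tumor_33 and -0.67 in tumor_9504. Just outside the groups stood tumor_9500 at 0.084 and tumor_31 at -0.017, with tumor_9495 at 0.026. The high-score group was the same under 4 other ways of making gene values. Judged by 217 other cell cycle genes, tumor_36 lay below the low-score tumour tumor_9523, so the groups are named by their score and the cell cycle counts are also given without each of these tumours. In the low-score group tumor_9495 took a place with the mean over probesets, and tumor_31 did so with centred or quantile normalized arrays.

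**Figure D1:**
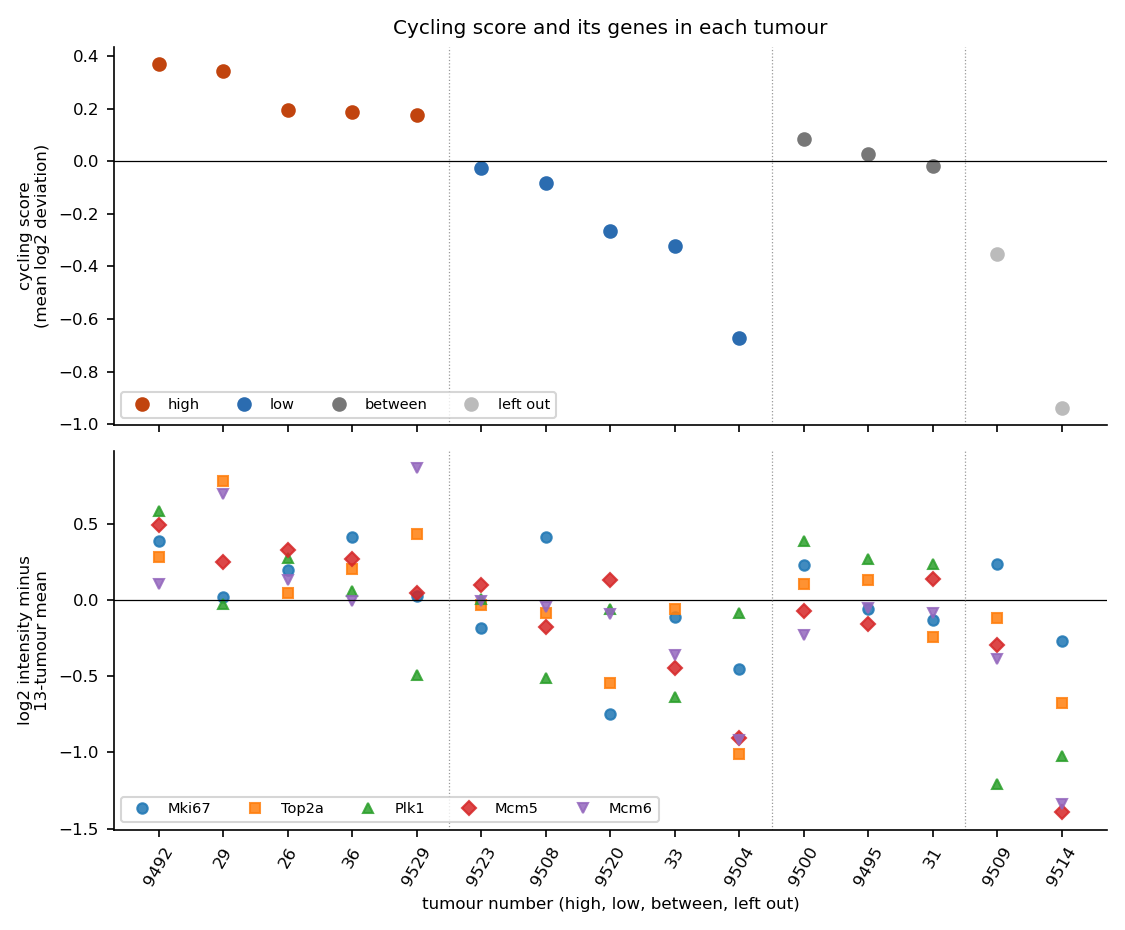
The upper panel plots the cycling score of each tumour (mean log2 deviation of 5 genes from their 13-tumour means), and the lower panel plots the deviation of each score gene, in the order high, low, between and left out. The 5 high-score tumours lie between 0.175 and 0.37, and the low-score tumours between -0.67 and -0.024, while single genes cross zero in both groups.

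Top2a, the topoisomerase that untangles DNA before mitosis, was 9.67, 10.17, 9.44, 9.59 and 9.82 in the high-score tumours, in the order given above, and 9.35, 9.30, 8.84, 9.33 and 8.38 in the low-score tumours. Mcm6, a subunit of the replicative helicase, was 9.64, 10.22, 9.66, 9.525 and 10.39 in the high-score tumours and 9.524, 9.48, 9.43, 9.17 and 8.61 in the low-score tumours. For these genes the groups did not overlap, although Mcm6 of tumor_36 and of tumor_9523 nearly touched. Mki67, the antigen used to stain cycling cells, averaged 10.70 ± 0.19 in high-score and 10.27 ± 0.43 in low-score tumours (SD, n = 5 each). The helicase subunit Mcm5 averaged 9.002 ± 0.16 in high-score and 8.466 ± 0.43 in low-score tumours. Plk1, a mitotic kinase, averaged 9.41 ± 0.40 in high-score and 9.07 ± 0.29 in low-score tumours. Mki67, Mcm5 and Plk1 each overlapped between the groups.

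The score genes did not move as one within single tumours. In tumor_9529 Mcm6 lay 0.86 above its 13-tumour mean while Plk1 lay at -0.49. In tumor_9508, a low-score tumour, Mki67 stood at 0.41, the highest deviation of that gene among the 13 ranked tumours, while Plk1 stood at -0.51. In tumor_9520 Mki67 was at -0.75 and Mcm5 at 0.13. Within the genes, the probesets mostly ran one way: 20 of 20 probesets of Mcm6 and 36 of 37 of Top2a had a higher mean in the high-score tumours. The same held for 5 of 5 probesets of Mki67, 17 of 19 of Mcm5 and 9 of 14 of Plk1.

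The promoters of the 5 score genes are shown to set apart the elements of S phase and mitotic genes, and those of Mcm3 and Cdc25a because they had the largest differences among cell cycle genes with a promoter in the table used. Each is the 250 bases before the gene's start, from RefSeq on build GRCm38.p6, printed 5′ to 3′ on the strand of the gene. The deposited values rest on build mm9, so no position was carried over. Capitals mark matches on either strand to 4 elements. The cell cycle homology region was searched as TTTGAA and also as TTCGAA. The CCAAT box was searched by those letters. The E2F-like element was searched as GCGGGAA, with the variants GCGCGAA and likewise GCGCCAA. The E-box was searched as CACGTG. An E2F-like match can overlap another or a CCAAT box, and overlapping matches were counted separately. The stretches lie at chr11:99024190-99024439 (minus strand) for Top2a, chr7:135716380-135716629 (minus strand) for Mki67 and chr7:122159185-122159434 (plus strand) for Plk1. They lie at chr8:75109259-75109508 (plus strand) for Mcm5, chr1:128359706-128359955 (minus strand) for Mcm6, chr1:20820313-20820562 (minus strand) for Mcm3 and chr9:109875329-109875578 (plus strand) for Cdc25a.
Top2a: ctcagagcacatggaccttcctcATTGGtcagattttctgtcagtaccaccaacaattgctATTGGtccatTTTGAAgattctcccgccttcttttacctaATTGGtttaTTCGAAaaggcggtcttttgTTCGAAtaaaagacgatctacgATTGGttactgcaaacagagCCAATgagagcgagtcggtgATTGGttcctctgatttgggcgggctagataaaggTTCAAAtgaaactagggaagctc
Mki67: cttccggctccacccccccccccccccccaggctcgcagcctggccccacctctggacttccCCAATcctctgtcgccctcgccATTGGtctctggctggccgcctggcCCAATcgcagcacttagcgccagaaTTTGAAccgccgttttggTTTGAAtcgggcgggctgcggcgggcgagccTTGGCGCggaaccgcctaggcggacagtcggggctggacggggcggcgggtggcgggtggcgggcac
Plk1: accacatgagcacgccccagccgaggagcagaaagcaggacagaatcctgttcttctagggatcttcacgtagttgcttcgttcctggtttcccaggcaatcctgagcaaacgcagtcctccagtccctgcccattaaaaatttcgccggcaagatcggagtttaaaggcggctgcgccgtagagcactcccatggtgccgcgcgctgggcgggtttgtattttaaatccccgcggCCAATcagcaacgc
Mcm5: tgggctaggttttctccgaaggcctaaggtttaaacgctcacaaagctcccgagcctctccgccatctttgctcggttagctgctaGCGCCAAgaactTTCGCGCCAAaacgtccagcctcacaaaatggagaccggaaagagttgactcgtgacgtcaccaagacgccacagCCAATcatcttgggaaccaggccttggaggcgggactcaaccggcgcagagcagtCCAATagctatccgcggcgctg
Mcm6: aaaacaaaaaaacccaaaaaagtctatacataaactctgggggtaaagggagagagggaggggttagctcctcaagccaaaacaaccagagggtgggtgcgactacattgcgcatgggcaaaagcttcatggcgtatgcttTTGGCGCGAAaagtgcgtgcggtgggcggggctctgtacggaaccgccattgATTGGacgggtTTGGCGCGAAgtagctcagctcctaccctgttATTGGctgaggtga
Mcm3: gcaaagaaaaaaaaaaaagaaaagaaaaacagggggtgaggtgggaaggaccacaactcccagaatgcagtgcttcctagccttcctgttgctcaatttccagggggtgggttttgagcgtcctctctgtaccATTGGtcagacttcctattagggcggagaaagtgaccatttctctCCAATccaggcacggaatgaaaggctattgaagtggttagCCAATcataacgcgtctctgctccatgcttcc
Cdc25a: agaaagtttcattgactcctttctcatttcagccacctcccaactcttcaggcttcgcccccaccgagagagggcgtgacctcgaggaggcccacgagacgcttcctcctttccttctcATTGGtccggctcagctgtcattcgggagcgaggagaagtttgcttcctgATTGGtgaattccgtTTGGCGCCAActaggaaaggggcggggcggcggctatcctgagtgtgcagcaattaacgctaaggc

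In these stretches Top2a held 4 cell cycle homology regions, 6 CCAAT boxes and 0 E2F-like elements. Mki67 held 2 cell cycle homology regions, 3 CCAAT boxes and 1 E2F-like element. The helicase genes had the other pattern: Mcm6 held 4 E2F-like matches and 0 cell cycle homology regions, and Mcm5 held 3 and 0. Cdc25a held 2 E2F-like matches, while Mcm3 and Plk1 held CCAAT boxes alone. None of the 7 held an E-box. A match is a description of letters, and the absence of one says only that these letters are not in the stretch.

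Over all other genes, 2 differed between the groups at an adjusted p under 0.05 (limma over 9772 genes, Benjamini-Hochberg), 1 in each direction, which is 0.0102% each. Tceal8, an X-linked member of a family named for its likeness to a transcription elongation factor, was higher in the high-score tumours. It was 6.59, 8.56, 8.15, 9.34 and 8.97 in the high-score tumours and 4.10, 5.03, 4.77, 4.47 and 4.0035 in the low-score tumours. All 5 low-score values lay under the detection limit, where signal may be background, and neither a fold nor a difference is given (adjusted p = 0.00707, limma). The gene passed the filter, which is on the mean of the 13 tumours, through the high-score mean of 8.32 and the mean of 8.10 of the tumours in between, against a low-score mean of 4.475, so its call is no measure of how stable the difference is. All 4 probesets of Tceal8 ran this way. Its level did not follow the score outside the compared tumours: tumor_9514, with the lowest score of all, stood at 9.35, tumor_9509 at 5.66, and tumor_9500, tumor_9495 and tumor_31 at 9.33, 6.57 and 8.41.

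Trim13, a ubiquitin ligase of the endoplasmic reticulum membrane, was lower in the high-score tumours. It was 6.82, 7.18, 7.42, 7.10 and 7.25 in the high-score tumours and 7.99, 8.35, 8.15, 8.68 and 8.17 in the low-score tumours. The groups did not overlap, all 6 probesets ran the same way, and the tumours in between lay at 7.36, 7.74 and 8.11 (difference -1.11 ± 0.15 SE, adjusted p = 0.0351, limma). The call held without tumor_9523 or tumor_26 and was lost without any 1 of the other 8 compared tumours (adjusted p up to 0.164), while the difference stayed between -1.18 and -1.01. Neither gene passed without limma's moderation (adjusted p = 0.159 for both) or within the 4-digit tumours alone (adjusted p = 0.338 for both), and Tceal8 was not tested with a filter at the 60th percentile or with probesets above the 25th percentile only.

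Counted without adjustment, the balance of directions depended on the scaling. At an unadjusted p under 0.05, 568 genes were higher (5.81%) and 207 lower (2.12%) in the high-score tumours, 7.93% in either direction. The difference was above 0 for 5380 genes (55.1%), with a median of 0.02. The groups did not overlap for 112 genes higher (1.15%) and 26 lower (0.266%) in the high-score tumours. After quantile normalization the counts at an unadjusted p under 0.05 were 412 higher and 337 lower, 4511 genes had a difference above 0 and the median was -0.016. After centring each array they were 614 higher and 185 lower.

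Genes of the cell cycle stood above this background as a body. Of 217 tested genes in 11 cell cycle lists, none of them a score gene, 191 had a difference above 0 (88.0%, against 55.1% of all genes), and the median difference was 0.24 (0.02 over all genes). An unadjusted p under 0.05 with a higher mean in the high-score tumours was found for 61 of them (28.1%, against 5.81%), and with a lower mean for 0. For 17 (7.83%, against 1.15%) the groups did not overlap. After quantile normalization 181 were above 0 with a median of 0.20. No member passed adjustment. These genes share their programme and their arrays with the score genes, so their direction is no independent evidence about the tumours. In bulk samples such as these, fewer cells of a type and less RNA per cell cannot be told apart.

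**Figure D2:**
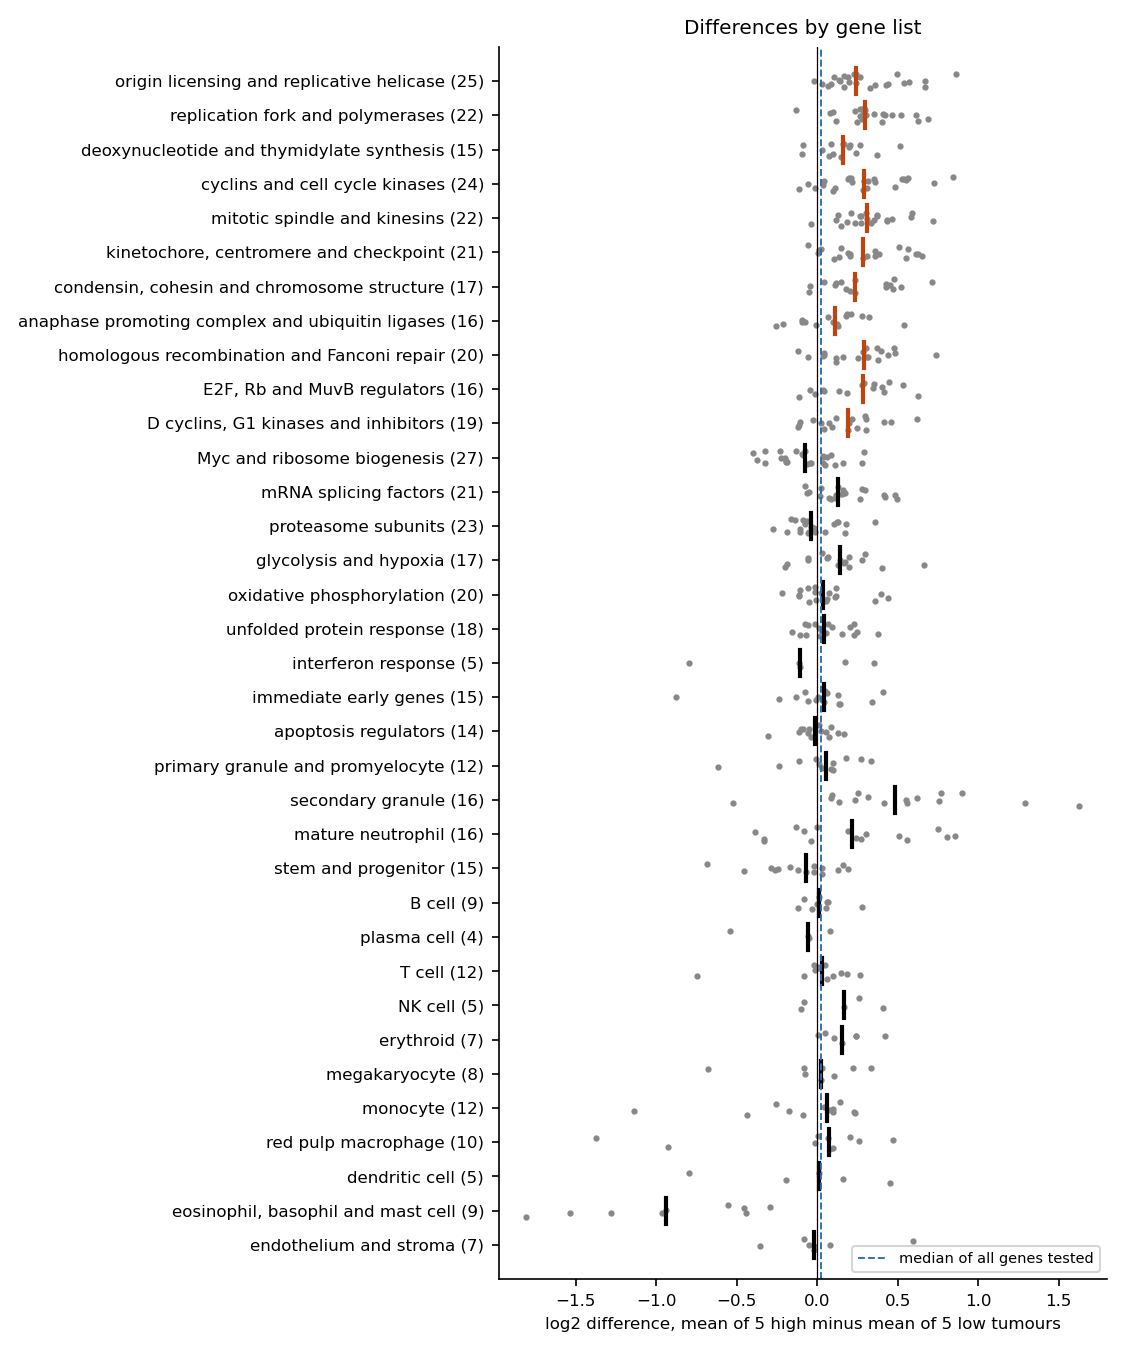
Each point is a tested gene, placed by its log2 difference (mean of 5 high-score minus mean of 5 low-score tumours), the thick bars are list medians (red for cell cycle lists), and the number of tested genes stands in brackets. The cell cycle medians lie between 0.11 and 0.31, to the right of the dashed median of all genes at 0.02, and the eosinophil, basophil and mast cell list lies at -0.94.

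The count depended on single tumours without changing sign. Without tumor_9504, which had the lowest score, 183 of the 217 genes had a difference above 0 and 45 an unadjusted p under 0.05 (4.54% of all genes). Without tumor_36 these counts were 200 and 75 (6.83% of all genes). Without tumor_9523 they were 192 and 70 (7.63% of all genes). The median difference lay between 0.21 and 0.29 with each tumour left out in turn. Over all genes in these fits, 4.54% to 7.63% were higher and 149 to 259 of 9772 lower at an unadjusted p under 0.05. These shares are the background for the list counts below with a tumour left out. Tumour numbers have 2 or 4 digits, which the labels do not explain; the high-score group holds 3 with 2 digits and 2 with 4, and the low-score group 1 and 4. Within the 4-digit tumours 189 of 217 genes were above 0 with a median of 0.34. Within the 2-digit tumours, where 1 low-score array stands against 3, 152 were above 0 with a median of 0.17.

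Replication genes mostly leaned one way. Of 25 tested genes for origin licensing and the replicative helicase, 24 had a difference above 0 and 8 an unadjusted p under 0.05 (5.81% of all genes), with a median of 0.24. Mcm3, another helicase subunit, was 8.85, 9.18, 8.93, 8.29 and 9.20 in the high-score tumours and 8.398, 8.11, 8.14, 7.98 and 7.51 in the low-score tumours. Only tumor_36 of the high-score group reached into the low-score range (difference 0.86 ± 0.20 SE, adjusted p = 0.289, limma). For Mcm10, which helps to load the fork, the groups did not overlap, at 7.55 ± 0.13 in high-score and 7.11 ± 0.08 in low-score tumours. Mcm4 had a difference of 0.67, with 24 of 24 probesets higher in the high-score mean.

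At the replication fork 21 of 22 tested genes were above 0 and 6 had an unadjusted p under 0.05 (5.81% of all genes), with a median of 0.30. The 6 were 11 without tumor_36. Prim1, the catalytic subunit of the primase that starts each new strand, was 9.11, 9.30, 9.07, 9.27 and 9.33 in high-score tumours and 8.72, 8.66, 8.35, 8.81 and 8.42 in low-score tumours. The groups did not overlap and all 15 probesets ran one way (difference 0.62 ± 0.12 SE, adjusted p = 0.212, limma). The histone chaperone Asf1b averaged 8.33 ± 0.37 in high-score and 7.64 ± 0.24 in low-score tumours. Pcna, the sliding clamp, showed little of this: it averaged 12.07 ± 0.26 in high-score and 11.97 ± 0.22 in low-score tumours, a difference of 0.10 ± 0.15 SE.

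Of 15 enzymes that make DNA building blocks 13 were above 0 and 2 had an unadjusted p under 0.05 (5.81% of all genes), with a median of 0.16. The median was 0.0897 without tumor_9504 and 0.24 at the highest with each tumour left out in turn, and the 2 were 4 without tumor_33 and 3 without tumor_9529. Rrm1, the large subunit of ribonucleotide reductase, averaged 8.83 ± 0.17 in high-score and 8.32 ± 0.31 in low-score tumours, with 20 of 20 probesets higher in the high-score mean. Thymidine kinase Tk1 averaged 8.27 ± 0.17 in high-score and 7.90 ± 0.20 in low-score tumours, with no overlap.

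Among cyclins and cell cycle kinases 21 of 24 genes were above 0 and 8 had an unadjusted p under 0.05 (5.81% of all genes), with a median of 0.29. The 8 were 5 without tumor_9504 or tumor_9492. Cdc25a, the phosphatase that switches on cyclin-dependent kinases for S phase, was 9.18, 9.21, 8.58, 9.06 and 8.61 in the high-score tumours and 8.37, 8.06, 8.29, 7.98 and 7.71 in the low-score tumours. No low-score tumour reached the high-score range, and the tumours in between lay at 8.79, 8.78 and 8.71 (difference 0.85 ± 0.17 SE, adjusted p = 0.267, limma). Both tumours left out lay below all 13 others, at 7.38 and 7.22. Chek1, the checkpoint kinase of stalled forks, averaged 8.03 ± 0.31 in high-score and 7.31 ± 0.47 in low-score tumours.

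**Figure D3:**
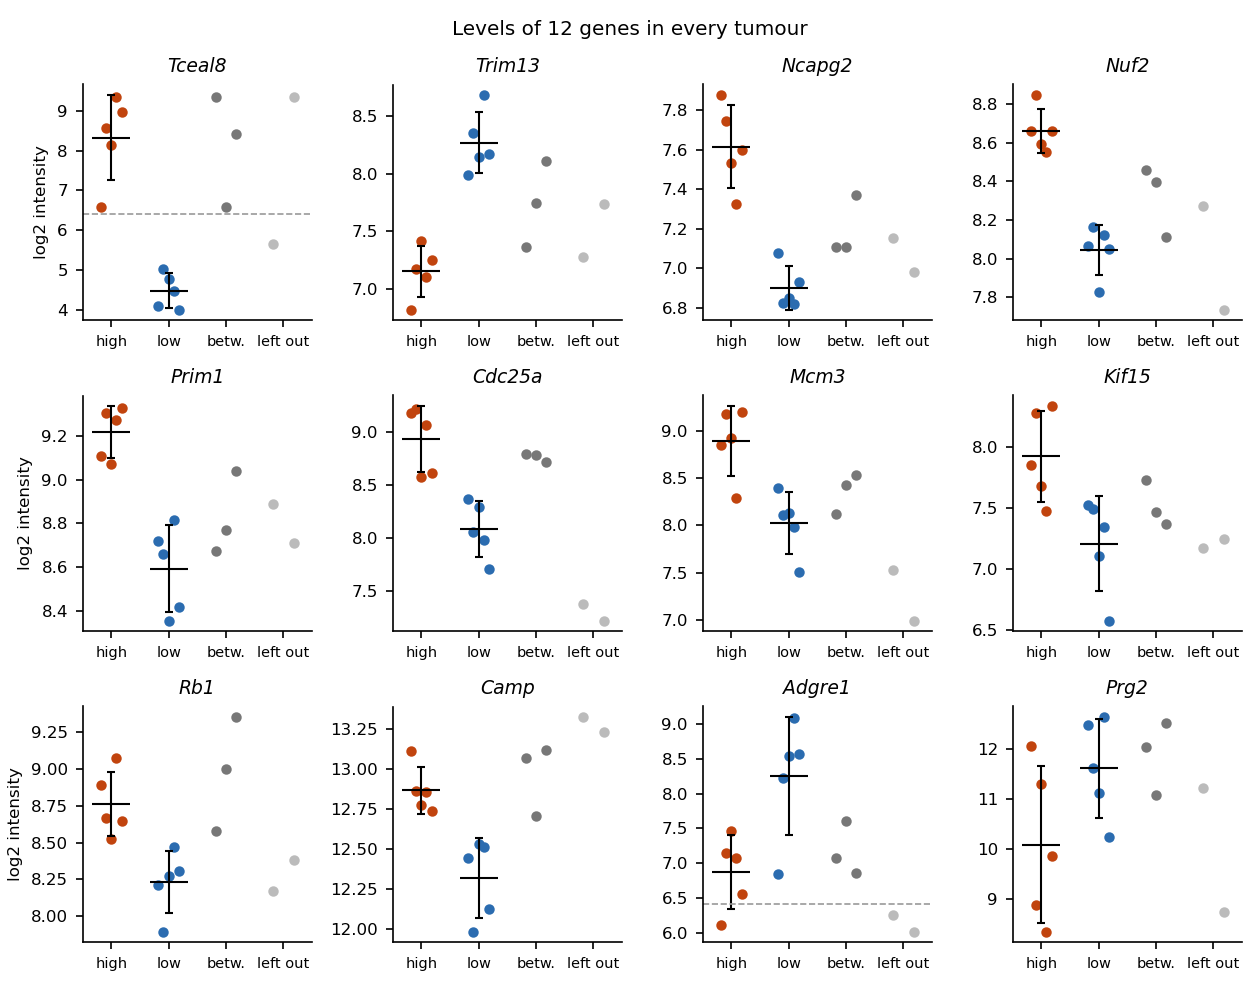
Log2 intensity of 12 genes in each tumour, by group (5 high-score, 5 low-score, 3 in between, 2 left out). Bars show mean ± SD for the high-score and low-score groups, and the dashed line, where in range, is the detection limit of 6.42. Tceal8 lies at 6.59 or above in every high-score tumour and under the limit in every low-score one, while Prg2 spreads over several log2 units in both groups.

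Of 22 tested spindle and kinesin genes 21 were above 0 and 11 had an unadjusted p under 0.05 (5.81% of all genes), with a median of 0.31, and for 4 the groups did not overlap (1.15% of all genes). The 11 were 5 without tumor_9529, 6 without tumor_9520 and 7 without tumor_29, while the median stayed between 0.25 and 0.36. Ckap2, a spindle-stabilising protein, averaged 7.32 ± 0.20 in high-score and 6.74 ± 0.22 in low-score tumours. Anln (anillin), which shapes the cleavage furrow, averaged 8.24 ± 0.18 in high-score and 7.78 ± 0.12 in low-score tumours. Kif15, a spindle motor, had the largest difference of the list, 0.72 ± 0.21 SE, with 35 of 35 probesets higher in the high-score mean and overlapping groups.

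Kinetochore and checkpoint genes were above 0 in 20 of 21 cases, 7 with an unadjusted p under 0.05 (5.81% of all genes) and a median of 0.28. The 7 were 4 without tumor_9504, tumor_9520 or tumor_9529. Nuf2, part of the complex that grips microtubules at the kinetochore, was 8.66, 8.84, 8.59, 8.55 and 8.66 in the high-score tumours and 8.07, 8.16, 7.83, 8.12 and 8.05 in the low-score tumours. A clear gap separated the groups, and all 17 probesets ran one way (difference 0.62 ± 0.11 SE, adjusted p = 0.145, limma). Bub3, a spindle checkpoint protein, averaged 9.19 ± 0.26 in high-score and 8.62 ± 0.11 in low-score tumours. Sgo2a, which guards cohesin at centromeres, averaged 8.39 ± 0.37 in high-score and 7.74 ± 0.33 in low-score tumours.

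Of 17 condensin, cohesin and chromosome genes 15 were above 0 and 6 had an unadjusted p under 0.05 (5.81% of all genes), with a median of 0.23. The condensin II subunit Ncapg2 was 7.88, 7.75, 7.53, 7.33 and 7.60 in high-score tumours and 7.08, 6.82, 6.85, 6.82 and 6.93 in low-score tumours. The ranges did not meet, and all 33 probesets were higher in the high-score mean (difference 0.72 ± 0.12 SE, adjusted p = 0.14, limma). The cohesin genes Rad21 and Stag1 had differences of 0.43 and 0.52 with overlapping groups.

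The list of the anaphase promoting complex and ubiquitin ligases, among them Skp2 and Fbxw7, had 10 of 16 genes above 0 (55.1% of all genes). Of the 16, 2 had an unadjusted p under 0.05 (5.81% of all genes), and the median was 0.11. The median was 0.0059 without tumor_9492 and 0.15 at the highest with each tumour left out in turn, and the 2 were 1 without tumor_9504, tumor_26, tumor_9520, tumor_33 or tumor_9529. The list's largest difference was that of Fbxo5, which encodes an inhibitor of the anaphase promoting complex, at 9.16 ± 0.20 in high-score and 8.62 ± 0.33 in low-score tumours. The core subunit Cdc16 averaged 7.18 ± 0.08 in high-score and 6.90 ± 0.18 in low-score tumours.

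In homologous recombination and Fanconi repair 18 of 20 genes were above 0 and 6 had an unadjusted p under 0.05 (5.81% of all genes), with a median of 0.29. The 6 were 2 without tumor_9504 and 3 without tumor_29 or tumor_9529, while the median stayed between 0.23 and 0.34. Brip1, a helicase that binds the product of Brca1, averaged 7.51 ± 0.24 in high-score and 6.78 ± 0.47 in low-score tumours. Brca1 itself averaged 7.07 ± 0.18 in high-score and 6.58 ± 0.20 in low-score tumours, with no overlap.

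Regulators of the programme included activators and brakes alike. Of 16 E2F, Rb and MuvB genes 13 were above 0 and 4 had an unadjusted p under 0.05 (5.81% of all genes), with a median of 0.28. The 4 were 2 without tumor_9508. Foxm1, an activator of mitotic genes, averaged 8.55 ± 0.26 in high-score and 7.92 ± 0.54 in low-score tumours. Rb1, which holds E2F factors in check, was 8.89, 8.67, 8.53, 9.07 and 8.65 in high-score tumours and 8.21, 7.89, 8.27, 8.47 and 8.31 in low-score tumours. Its groups did not overlap, with 28 of 28 probesets higher in the high-score mean (difference 0.53 ± 0.14 SE, adjusted p = 0.366, limma). E2f7, a repressor in the E2F family, averaged 7.71 ± 0.15 in high-score and 7.27 ± 0.21 in low-score tumours, again with no overlap.

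The G1 list, of D cyclins with their kinases and inhibitors, had 15 of 19 genes above 0, 1 with an unadjusted p under 0.05, a share near the 5.81% of all genes, and a median of 0.19. The median was 0.094 without tumor_29 and 0.24 at the highest with each tumour left out in turn, and the 1 was 2 without tumor_9523, tumor_9492, tumor_33 or tumor_9529. That 1 gene was Cdkn2c, an inhibitor of Cdk4 and Cdk6, at 8.79 ± 0.46 in high-score and 8.17 ± 0.34 in low-score tumours. Differences were small against their errors for Ccnd1 (0.04 ± 0.11 SE), Ccnd2 (0.24 ± 0.46), Ccnd3 (0.07 ± 0.16), Cdk4 (-0.11 ± 0.14) and Cdk6 (0.21 ± 0.17). The same held for the inhibitors Cdkn1a (0.46 ± 0.42) and Cdkn1b (0.11 ± 0.25). Ccnd2 reached 10.20 in tumor_9529 and 9.31 in tumor_9523, 1 tumour of each group.

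**Figure D4:**
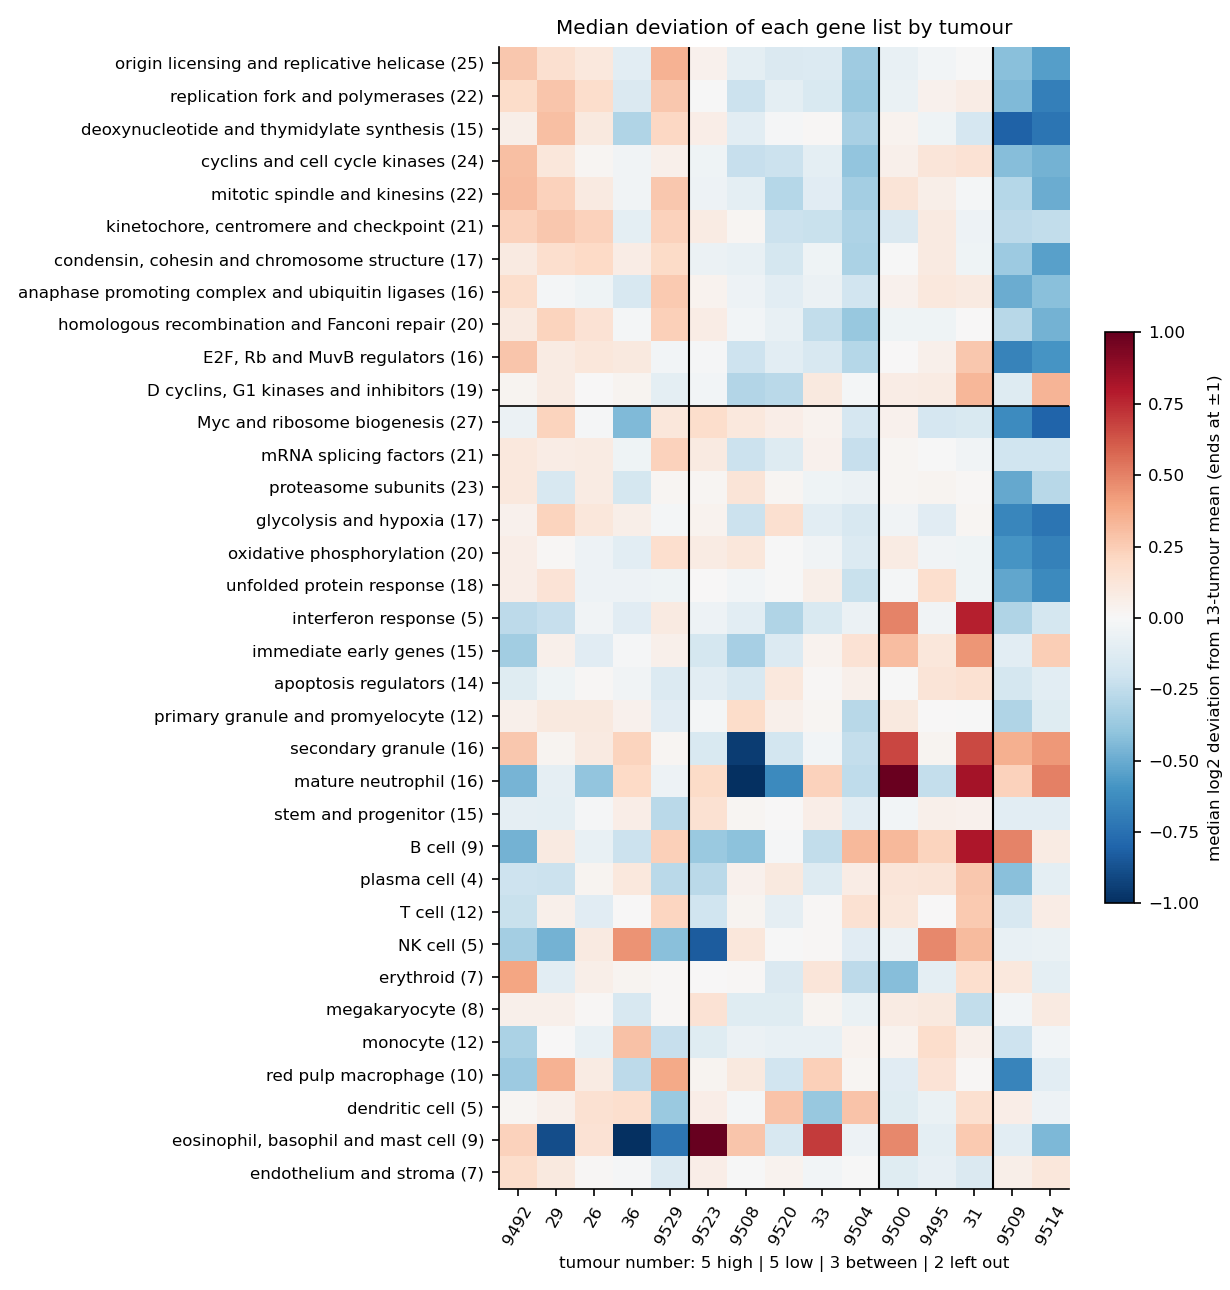
Colour gives the median log2 deviation of a list's tested genes from their 13-tumour means in each tumour (red higher, blue lower, colour scale ending at -1 and 1). The upper block holds the 11 cell cycle lists. They are above 0 in 9 to 11 lists in 4 of the high-score tumours but in 3 of 11 in tumor_36, and secondary granule and mature neutrophil genes are lowest in tumor_9508.

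Tumour by tumour, the cell cycle lists followed the score for most but not all arrays. The median deviation of the 217 genes was 0.18 in tumor_9492, 0.19 in tumor_29, 0.11 in tumor_26, -0.051 in tumor_36 and 0.19 in tumor_9529. It was 0.012 in tumor_9523, -0.096 in tumor_9508, -0.15 in tumor_9520, -0.11 in tumor_33 and -0.31 in tumor_9504. By these genes tumor_36 lay below tumor_9523, so these 2 tumours go against their groups. In tumor_36, 8 of the 11 lists lay below 0, nucleotide synthesis lowest at -0.30, although its Mki67 was 0.41 above the mean. The tumours in between lay at -0.0077 in tumor_9500, 0.050 in tumor_9495 and 0.062 in tumor_31.

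The list medians of single high-score tumours are given as values, since differences between lists were not tested. In tumor_9492 they were 0.31 for spindle genes, 0.30 for cyclins and kinases, 0.27 for origin licensing, 0.055 for nucleotide synthesis and 0.025 for the D cyclin list. In tumor_9529 they were 0.35 for origin licensing, 0.27 for the replication fork, 0.27 for spindle genes, 0.23 for kinetochore genes, 0.051 for cyclins and kinases, -0.024 for E2F regulators and -0.098 for the D cyclin list.

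The tumours in between were not used in the comparison, though their scores lay between those of the groups. For 110 of the 217 genes (50.7%) the mean of the 3 tumours in between lay between the means of both groups, against 29.2% of all genes tested. These 217 genes share the programme of the score, which placed the 3 tumours in between. Their group means also lie further apart (median difference 0.24 against 0.02), which leaves more room between them. The 2 shares are therefore a description only. The tumours left out had median deviations of -0.39 in tumor_9509 and -0.49 in tumor_9514, and all genes tested had -0.27 and -0.21 on the same arrays. The part of their array quality in this was not tested.

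With the score as a continuous measure over all 13 tumours, 18 genes rose with it and 1 fell at an adjusted p under 0.05 (limma over 9772 genes). Of the 18, 6 were cell cycle list members: Brip1, Cdc25a, Kif15, Mcm3, Plk4 and Ttk. That is 2.76% of the 217 list members and 0.184% of all genes. Neither Tceal8 (adjusted p = 0.126) nor Trim13 (adjusted p = 0.0613) was among them. Slopes here are per unit of score, such as 1.46 ± 0.22 SE for Cdc25a and 1.46 ± 0.26 SE for Mcm3.

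Promoter elements differed between lists of different roles. Over all 6347 tested genes with 1 promoter in the table, in the window from 250 bases before to 50 after the start, 14.2% held a cell cycle homology region, 39.8% a CCAAT box, 15.2% an E2F-like element and 10.3% an E-box. Among 156 cell cycle genes these shares were 37.8%, 60.3%, 35.3% and 9.62%. The cell cycle homology region was held by 15 of 18 spindle genes (83.3%) and 9 of 15 kinetochore genes (60%), but by 2 of 17 fork genes (11.8%). The E2F-like element was held by 11 of 17 fork genes (64.7%) and 9 of 15 recombination and Fanconi genes (60%), and by 3 of 18 spindle genes (16.7%). These lists were drawn up by role, so the shares describe the genes and not the tumours.

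**Figure D5:**
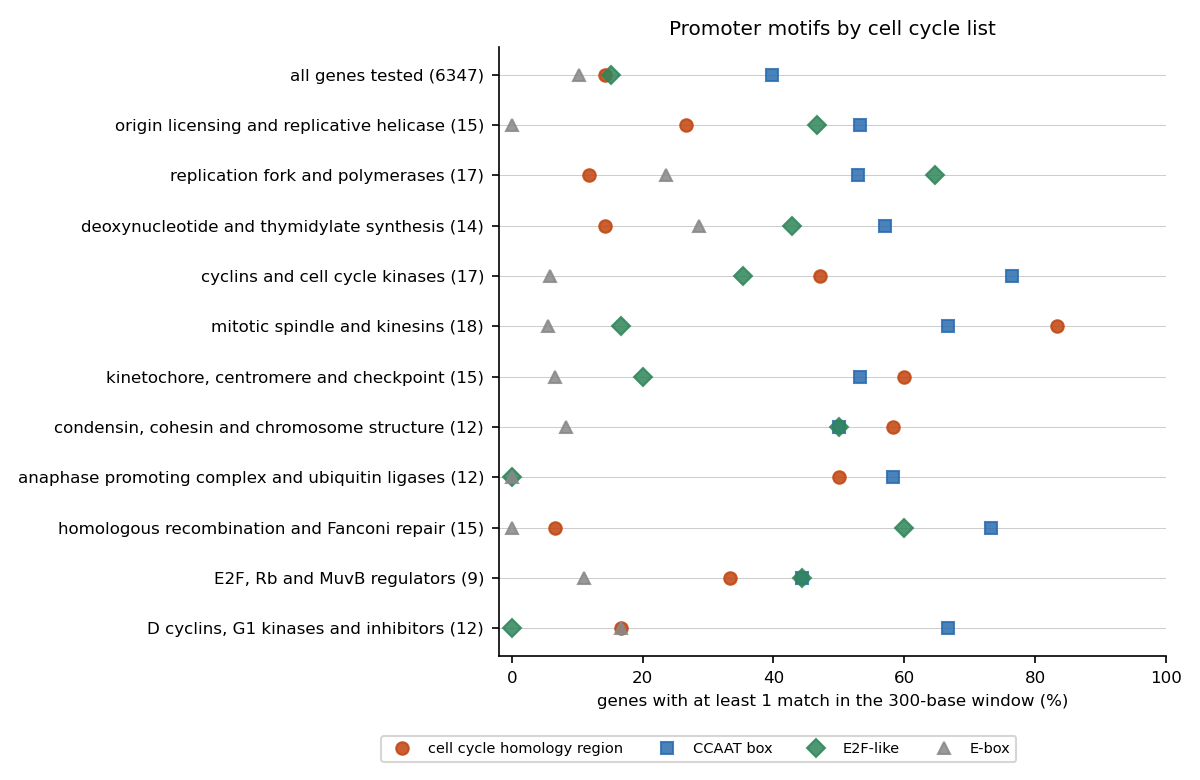
Share of genes (%) with at least 1 match to each of 4 promoter elements, for all genes tested and for the 11 cell cycle lists, with the number of genes that have 1 promoter in brackets. Spindle genes stand at 83.3% for the cell cycle homology region and fork genes at 64.7% for the E2F-like element, against 14.2% and 15.2% of all genes.

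Of 27 tested genes of Myc and ribosome biogenesis 10 were above 0 (55.1% of all genes were), with a median of -0.07. At an unadjusted p under 0.05 there were 0 of 27 in either direction (7.93% of all genes). Myc was 10.78, 11.77, 11.03, 10.51 and 10.70 in the high-score tumours and 11.18, 11.26, 11.57, 10.73 and 10.99 in the low-score tumours. The groups overlapped (difference -0.19 ± 0.23 SE), with the highest value in tumor_29. The nucleolar gene Gnl3 had a difference of -0.40, spermidine synthase Srm of -0.38 and Nop16 of -0.32. In tumor_36 this list had its lowest median among the 13, -0.44, and with each tumour left out in turn the median difference ran from -0.13 to 0.025, above 0 without tumor_36.

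Other housekeeping programmes varied in their counts. Of 21 splicing factor genes 18 were above 0 and 5 had an unadjusted p under 0.05 (5.81% of all genes), with a median of 0.13. The median was 0.21 without tumor_9523 and 0.0965 at the lowest with each tumour left out in turn, and the 5 were 3 without tumor_9504 or tumor_9529. Sf3b1, of the U2 particle, had a difference of 0.50, Prpf8 of 0.48 and Srsf2 of 0.41. Proteasome genes had 7 of 23 above 0 and a median of -0.04, from Psmd12 at 0.36 to Psmb1 at -0.27. Glycolysis and hypoxia genes had 13 of 17 above 0 and a median of 0.14, with pyruvate kinase Pkm at 0.66 and Gpi1 at 0.40, where Gpi1 had no overlap. Oxidative phosphorylation had 11 of 20 above 0 and a median of 0.03, led by Uqcrc1 (0.44) and Sdha (0.40). The unfolded protein response had 12 of 18 above 0 and a median of 0.04, with Edem1 at 0.37.

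The secondary granule list, which also holds other genes of maturing neutrophils such as S100a8, Ltb4r1 and Padi4, leaned up in the high-score tumours beside the cell cycle. Of 16 tested, 15 had a difference above 0, 7 an unadjusted p under 0.05 (5.81% of all genes) and 4 no overlap (1.15% of all genes), with a median of 0.48. The 7 were 4 without tumor_36 (6.83% of all genes) and 4 with the digits of the tumour number as a block (6.3% of all genes). They were 3 within the 4-digit tumours (4.87% of all genes). Within the 2-digit tumours, where 1 low-score array stands against 3, the median was 0.16. Lactoferrin, Ltf, was 10.98, 11.52, 10.08, 11.04 and 10.64 in the high-score tumours and 10.36, 7.67, 9.81, 9.93 and 8.36 in the low-score tumours. Its groups overlapped through tumor_26 and tumor_9523 (difference 1.63 ± 0.46 SE, adjusted p = 0.40, limma). Camp, the cathelicidin peptide, averaged 12.87 ± 0.15 in high-score and 12.32 ± 0.25 in low-score tumours, with no overlap. Cybb, the oxidase subunit, ran from 7.80 to 10.71 in high-score and from 5.70 to 8.97 in low-score tumours.

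This list did not order the tumours as the score did. The mean of the 3 tumours in between lay between the group means for 1 of the 16 genes, and the mean of both left-out tumours lay above the high-score mean for 14 of 16. The list's median deviation was lowest in tumor_9508, at -0.95, and the median difference was 0.30 without that tumour (0.30 to 0.59 with each left out in turn). The summed intensity of the 16 genes was 38917 to 48387 in high-score, 29521 to 41174 in low-score and 45190 to 62059 in the tumours in between. The part of tumour maturity in the differences was not tested.

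Mature neutrophil genes were mixed. Of 16, 10 were above 0 and 3 had an unadjusted p under 0.05 (5.81% of all genes), a count that was 1 without tumor_9508. The median was 0.22, and it was -0.09 without tumor_9508 and -0.04 with the digits of the tumour number as a block, where 1 gene was higher and 1 lower at an unadjusted p under 0.05. Csf3r, the receptor for the neutrophil growth factor G-CSF, was 9.54, 9.22, 9.26, 9.45 and 9.51 in the high-score tumours and 9.14, 8.11, 8.25, 8.94 and 8.29 in the low-score tumours. The groups did not overlap, and 19 of 19 probesets were higher in the high-score mean (difference 0.85 ± 0.20 SE, adjusted p = 0.289, limma). Trem1, a myeloid activating receptor, had a difference of 0.56.

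Genes of the leukaemic stage itself differed little in the median. The promyelocyte list had 8 of 12 above 0 (55.1% of all genes) and a median of 0.06, with differences from -0.62 to 0.33. At an unadjusted p under 0.05 it had 0 of 12 in either direction (7.93% of all genes), too few genes to set apart from that share. Mpo, myeloperoxidase, averaged 13.11 ± 0.12 in high-score and 12.84 ± 0.25 in low-score tumours. Cst7 averaged 11.69 ± 0.21 in high-score and 11.93 ± 0.09 in low-score tumours. The stem and progenitor list had 5 of 15 above 0, 2 with an unadjusted p under 0.05 and lower in high-score tumours (2.12% of all genes), and a median of -0.07. The 2 were Ikzf2 (-0.69 ± 0.29 SE) and Gata2 (-0.46 ± 0.15 SE). Gata2 is counted again below, among the markers of eosinophils, basophils and mast cells. Kit, the stem cell factor receptor, had a difference of 0.19 ± 0.31 SE.

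Among markers of other cells, those of eosinophils, basophils and mast cells stood out. None of 9 tested markers had a difference above 0, 5 had an unadjusted p under 0.05 and lower means in the high-score tumours (2.12% of all genes), and the median was -0.94. Prg2, an eosinophil granule protein, was 12.07, 8.87, 11.31, 8.34 and 9.85 in the high-score tumours and 12.48, 11.62, 11.11, 12.65 and 10.24 in the low-score tumours. The groups overlapped, with tumor_29, tumor_36 and tumor_9529 lowest of the 13 (difference -1.53 ± 0.68 SE, adjusted p = 0.61, limma). Its relative Prg3 averaged 7.08 ± 1.91 in high-score and 8.89 ± 1.86 in low-score tumours. Prg3 lay under the detection limit in tumor_29 (5.92), tumor_36 (5.14), tumor_9529 (6.09) and tumor_9504 (6.31). For the basophil protease Prss34 the high-score mean of 6.38 lay under that limit, against 7.32 in low-score tumours. The difference of Prss34 is the list median, so background may affect the size of that median. The factor Gata2, also a member of the stem and progenitor list, had a difference of -0.46.

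The summed intensity of the 14 measured markers of these cells was 2264 to 9585 in high-score and 5113 to 17065 in low-score tumours. Of the 14, 5 lay under the detection limit: Ear6, Ccr3, Il5ra, Fcer1a and Ms4a2. The median difference was -0.69 to -0.95 with each tumour left out in turn, and the count at an unadjusted p under 0.05 was 2 without tumor_9523, tumor_36, tumor_29 or tumor_33, 3 without tumor_9508 or tumor_9529, and 7 without tumor_9492. A difference above 0 was found for 1 of the 9 without tumor_9523, tumor_36 or tumor_33, and for 1 within the 4-digit tumours. Within the 4-digit tumours the median was -0.41, with 1 of the 9 lower at an unadjusted p under 0.05 (184 of 9772 over all genes). Within the 2-digit tumours, where 1 low-score array stands against 3, it was -1.68. With the digits as a block it was -0.66, with 3 of 9 lower at that threshold (182 of 9772 over all genes). Tumour by tumour the list did not separate the groups. Its median deviation was 0.23 in tumor_9492, -0.89 in tumor_29, 0.15 in tumor_26, -1.34 in tumor_36 and -0.73 in tumor_9529. It was 1.19 in tumor_9523, 0.28 in tumor_9508, -0.16 in tumor_9520, 0.70 in tumor_33 and -0.05 in tumor_9504. The part of eosinophils, basophils and mast cells in the other differences was not tested.

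Macrophage markers were split. Of 10 tested red pulp macrophage genes 7 were above 0, with a median of 0.07, but 2 had an unadjusted p under 0.05 and lower means in the high-score tumours (2.12% of all genes). The median was -0.0104 without tumor_9529. Adgre1, a surface receptor used to mark mouse macrophages, was 6.12, 7.15, 7.46, 7.07 and 6.57 in the high-score tumours and 6.84, 8.23, 8.54, 9.08 and 8.57 in the low-score tumours. Only tumor_9523 of the low-score group fell in the high-score range (difference -1.38 ± 0.37 SE, adjusted p = 0.372, limma). Cd68 averaged 10.01 ± 0.50 in high-score and 10.93 ± 0.61 in low-score tumours. The summed intensity of the 16 markers was 2276 to 4728 in high-score and 3435 to 6431 in low-score tumours, and 6 of them, Spic, Cd163, Mertk, Cd5l, Marco and Timd4, lay under the limit.

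Spleen cells of other kinds differed little in the median. It was 0.01 over 9 B cell genes, 0.03 over 12 T cell genes, 0.16 over 5 NK cell genes, -0.06 over 4 plasma cell genes and 0.02 over 8 megakaryocyte genes. It was 0.06 over 12 monocyte genes, 0.01 over 5 dendritic cell genes and -0.02 over 7 genes of endothelium and stroma. With each tumour left out in turn the NK cell median ran from -0.13 to 0.31, and it was below 0 without tumor_9523, tumor_36 or tumor_26. The sign also turned for each of the other lists here but the T cell list. In each of these lists 0 genes reached an unadjusted p under 0.05 with a higher mean in the high-score tumours (5.81% of all genes). The 1 with a lower mean (2.12% of all genes) was Bst2, of the dendritic cell list (-0.80 ± 0.32 SE). The erythroid list had 7 of 7 above 0 (55.1% of all genes) with a median of 0.15. It had 0 at an unadjusted p under 0.05 in either direction (7.93% of all genes), and 10 of its 17 measured genes lay under the limit. Hbb-b1, an adult haemoglobin gene read by 2 probesets, had a difference of 0.42 ± 0.39 SE.

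Stress and signalling lists had small median differences. Interferon response genes had 2 of 5 above 0 and a median of -0.11, with 11 of 16 measured genes under the limit. Of the 5, 1 (Bst2) was lower at an unadjusted p under 0.05 (2.12% of all genes). Immediate early genes had 9 of 15 above 0 and a median of 0.04. At that threshold 1 was lower (Ier3, -0.88) and 1 higher (Ier2, 0.34), against 7.93% of all genes in either direction. Apoptosis regulators had 7 of 14 above 0, a median of -0.01 and 0 of 14 at that threshold, with Bmf at -0.30.

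Among genes higher without overlap, the 11 with the smallest p after Tceal8 did not pass (adjusted p 0.14 to 0.282, limma), and 4 of them, Ncapg2, Nuf2, Prim1 and Cdc25a, are described above. Gca, a calcium-binding protein of neutrophils, was 9.45, 9.41, 8.98, 9.31 and 9.03 in the high-score tumours and 8.56, 7.32, 8.31, 7.85 and 7.62 in the low-score tumours. Pxylp1, a xylose phosphatase, averaged 9.62 ± 0.18 in high-score and 8.61 ± 0.38 in low-score tumours. The ubiquitin ligase Cbl, which turns off receptor kinases, averaged 9.23 ± 0.13 in high-score and 8.62 ± 0.14 in low-score tumours. Fbxw11, an F-box protein of the ligase that degrades Cdc25a, averaged 8.79 ± 0.07 in high-score and 8.18 ± 0.18 in low-score tumours. The remaining 3 were Rpe, of the pentose phosphate pathway (0.61), the acyltransferase Lpgat1 (0.52) and the repair helicase Zgrf1 (0.77).

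In the other direction 11 further genes without overlap had adjusted p between 0.212 and 0.379 (limma). For 6 of them, Hacd4, Nfia, Scrt1, Dync2li1, Cgref1 and Gpatch4, the high-score mean lay under the detection limit, and a fold is left out. Nfia, a transcription factor, averaged 6.37 ± 0.23 in high-score and 7.25 ± 0.38 in low-score tumours. Chchd7 averaged 8.87 ± 0.25 in high-score and 9.56 ± 0.35 in low-score tumours. Cyp4f18, which breaks down leukotrienes in neutrophils, averaged 6.89 ± 0.14 in high-score and 7.49 ± 0.35 in low-score tumours. Niban2 (-0.40), Rassf4 (-0.50) and Iqce (-0.37) made up the rest.

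Kdm6a and Jak1, known to be altered in some mouse APL tumours, are given for the same tumours. Kdm6a, a histone demethylase gene, was low in 1 tumour of each group, at 5.25 in tumor_26 and 5.42 in tumor_9520, and in tumor_9500 (4.94) and tumor_9495 (5.28) in between, with a difference of 0.03 ± 0.48 SE. Jak1 averaged 9.12 ± 0.20 in high-score and 8.82 ± 0.07 in low-score tumours, with no overlap and 28 of 28 probesets higher in the high-score mean (difference 0.29 ± 0.12 SE, adjusted p = 0.558, limma).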

How the data were processed

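Each of 15 spleen samples was read on 1 Affymetrix Mouse Exon 1.0 ST array from 20 ng of amplified total RNA, per the labels' protocols. The deposited table of the authors holds an intensity for every probeset on every array, from 2.38 to 19380, a range that is linear and not log. RMA and build mm9 appear in the submitters' processing notes with no version number. Whether values were scaled further is not given in the sources used here. Scanner files were not used here, so background correction was not varied and scan dates were not checked. No pair of arrays held the same values.

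All values were put on a log2 scale. The platform annotation gave a single symbol to 208397 of 229581 probesets, which were used, several to 3965 and none to 17219. Of 16299 symbols 14132 were current in the RefSeq table of GRCm38.p6, 2105 were renamed through it and 62 were kept as listed. That table gave names, chromosomes and promoters only. Probesets of a gene (median number 11) were combined by their median. Ccnb1 and Rrm2 were not analysed here, so the score used 5 of the 7 genes of the rule, and a script made the groups from it.

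The groups were compared with limma (lmFit and eBayes) over 9772 genes whose mean over 13 tumours passed the 40th percentile of named genes, without the score genes, with Benjamini-Hochberg adjustment over all of them at 0.05. Named were, per direction, up to 12 called genes with at least 3 probesets and no overlap, places left going to the smallest p. Also named were members of each list with the largest difference or the smallest p, the score genes and fixed genes such as Myc, Kdm6a and Jak1. The tumours, lists and members were chosen with earlier results of these data known.

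Alternatives were the mean over probesets, other filters on dim genes or probesets, centred or quantile normalized arrays, other fits, the score as a covariate, tumours by the digits of their number and each tumour left out. How often the fit would find a true difference of a given size between these tumours was not tested. Tables and figures were made in Python 3.11.15 with pandas 2.3.3, numpy 2.4.6, scipy 1.17.1 and matplotlib 3.10.9, and the fits in limma 3.58.1 under R 4.3.3.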

Additional observations from a re-analysis of the deposited data

Results flagged for a closer look

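In 6 of 210 sets of 5 tumours, for the genes named, 1 tumour stood far from the other 4 by Dixon's measure; chance alone does this in about 1 set in 20. In high-score tumours tumor_9492 was the lowest for Cd14, a monocyte marker, at 5.985, with the others between 7.32 and 7.51. It was also the lowest for Hacd4 at 5.40, with the others between 5.92 and 6.09. In low-score tumours tumor_9508 was the highest for the proteasome gene Psmb1 at 11.32, with the others between 10.73 and 10.84, and for Bst2 at 9.47, with the others between 8.26 and 8.597. The value of Nfia in tumor_9520 was 7.91, above 7.03 to 7.21 in the other low-score tumours. Cd68, a macrophage marker, was 9.89 in tumor_9523, below 10.997 to 11.43 in the other low-score tumours.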

How the results depend on the processing

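The count of genes higher in high-score tumours (Tceal8 alone) was 0 with a filter at the 60th percentile, with probesets above the 25th percentile, without moderation and within the 4-digit or the 2-digit tumours. Under the first 2 of these Tceal8 was not tested. The count of genes lower (Trim13 alone) was 0 with the mean over probesets, without a filter, with centred arrays, without moderation and within the 4-digit or the 2-digit tumours. With the score as a covariate over 13 tumours 18 genes rose with it, and over 15 tumours, which include the 2 arrays that stand apart, 750 rose and 24 fell. With each tumour left out in turn, the counts ran from 1 to 2 for genes higher and from 0 to 2 for genes lower. A second gene passed without tumor_9523 (Gca, higher) and without tumor_26 (Akr1e1, higher, and Tex14, lower). Why these counts moved was not tested. The 2-digit alternative was chosen after seeing the data. No paired analysis was possible because the labels give 1 group with no shared replicate numbers.

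Some differences changed sign, and none of these genes passed adjustment in the main comparison. Over 15 tumours the slopes per unit of score were -0.26 for Cdkn1b, -0.13 for Ccnd1 and Ccnd3, 0.66 for Cdk4, 1.05 for Myc, 0.41 for Gnl3, 0.79 for Srm, 0.98 for Nop16, 0.59 for Cst7, 0.0897 for Ikzf2, 0.50 for Prg2, 0.87 for Prg3, -0.23 for Cd79b, 0.16 for Fkbp11, -0.45 for Hbb-b1, 0.15 for Itga2b, 0.19 for Cd14 and -0.24 for Kdm6a. Over 13 tumours they were -0.0024 for Ccnd1, 0.058 for Cdk4, -0.13 for Cd79b and -0.12 for Kdm6a. Within 2-digit tumours the differences were -0.0027 for Fbxo5, -0.15 for Ccnd1, -0.0257 for Ccnd3, -0.24 for Pcna, 0.37 for Myc, -0.0254 for Kit, -0.61 for Hbb-b1, -0.12 for Tfrc, 0.12 for Cd14 and -0.81 for Kdm6a. Within 4-digit tumours they were -0.18 for Cdkn1a, -0.0572 for Cdkn1b and -0.10 for Ccnd3, and with the digits as a block -0.0294 for Cdkn1b and -0.0728 for Ccnd3. Prf1 was at -0.0503 with probesets above the 25th percentile, and Kdm6a at -0.0054 with quantile normalization and -0.0647 with array weights. With each tumour left out in turn, differences ran from -0.34 to 0.44 for Kdm6a (lowest without tumor_9520), -0.13 to 0.26 for Cdkn1b and -0.0223 to 0.19 for Ccnd3 (both lowest without tumor_9508), -0.17 to 0.50 for Ccnd2 (lowest without tumor_9529), -0.0083 to 0.0789 for Ccnd1 (lowest without tumor_9492) and -0.0358 to 0.455 for Kit (lowest without tumor_29). Of the other values for named genes, 2358 kept their direction and their side of the threshold. Signal near background limits genes under the detection limit.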

Other observations

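Grouped by chromosome, the differences were uneven, and these are given as values alone. The median difference was 0.13 over 536 tested genes of chromosome 1, 0.11 over 292 of chromosome 16, 0.10 over 549 of chromosome 9 and 0.08 over 888 of chromosome 11, against 0.02 over all genes, and was lowest on chromosome 2 at -0.04 over 766 genes. An unadjusted p under 0.05 with a higher mean in the high-score tumours was found for 88 genes of chromosome 1 (16.4%), 76 of chromosome 9 (13.8%), 33 of chromosome 16 (11.3%) and 89 of chromosome 11 (10%), against 5.81% of all genes. With each tumour left out in turn the median stayed between 0.09 and 0.16 for chromosome 1 and between 0.05 and 0.15 for chromosome 16.

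Single tumours carried these shifts unequally. Relative to all genes of the same tumour, the median deviation of chromosome 1 genes was 0.16 in tumor_29 and 0.17 in tumor_9529, and between -0.02 and 0.01 in the other 3 high-score tumours. The same 2 tumours stood at 0.11 and 0.08 for chromosome 9 and at 0.11 and 0.07 for chromosome 11. They were low on other chromosomes: -0.07 and -0.11 on chromosome 4, -0.06 and -0.14 on chromosome 7, and -0.08 and -0.14 on chromosome 17. For chromosome 16 it was 0.29 in tumor_9492 and 0.15 in tumor_9529, and -0.08, 0 and -0.02 in tumor_29, tumor_26 and tumor_36. Chromosome 14 genes stood at 0.21 in tumor_9529, and chromosome 19 genes at -0.31 in tumor_9492 and -0.29 in the low-score tumour tumor_9523. Of the cell cycle genes named, Mcm3, Mcm6, Nuf2 and Sgo2a lie on chromosome 1 and Mcm4 on chromosome 16. Cdc25a, Chek1, Kif15, Anln, Stag1 and Ttk lie on chromosome 9, and Top2a, Tk1, Brip1 and Brca1 on chromosome 11. Others lie elsewhere, such as Mki67, Plk1, Rrm1 and Bub3 on chromosome 7, and Mcm5, Asf1b and Ckap2 on chromosome 8. Prim1, Fbxo5 and E2f7 lie on chromosome 10, Mcm10 on chromosome 2, Foxm1 on chromosome 6, Ncapg2 on chromosome 12 and Rb1 on chromosome 14. The part of chromosome-wide shifts in their differences was not tested.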
